A study of Mus musculus with 12 samples.

Results

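The small RNAs of the mouse cauda epididymis were compared between 1 library from wild-type (WT) C57BL/6 mice and 1 library from mice that lack the gene Gpx5 (Gpx5-/-, KO), both at 13 months of age. These are 2 of the 12 samples of the series and 2 of its 10 small RNA libraries, and they were chosen by tissue, age and RNA type alone. Each library holds pooled RNA from 7 animals of its genotype, and the pool stood in place of separate replicates. The cauda was punctured and kept in saline so that sperm could leave before RNA was taken, and inserts of 18 to 40 nt were selected. With 1 pooled library per genotype, no difference given here has a replicate check and no test was made. Intervals are 95% and cover counting error only, since the reads carry no molecular identifiers and are not independent molecules.

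GPX5 is a glutathione peroxidase that the epididymal epithelium secretes into the lumen, where sperm are stored. MicroRNAs (miRNAs) are short RNAs that pair with messenger RNAs mainly through the seed, the bases just inside their 5′ end, so the first base of a miRNA sets which targets it can pair with. Fragments from the 5′ part of tRNAs, above all those of glycine and valine, are abundant in the cauda and in the sperm stored there.

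The WT library held 16432212 classified reads of 193297 distinct sequences, and the KO library held 11451522 reads of 194346 sequences. All values below are reads per 1000000 classified reads (RPM). The floor of 3 counts that stands for 0 lies at 0.183 RPM in WT against 0.262 RPM in KO. The 50910 sequences present in both libraries held 98.98% of WT reads and 98.4% of KO reads. The ranks of the deposited lists skip 21 of the 100 most abundant sequences in WT and 18 in KO, and skipped sequences were not analysed here. The first skipped rank in WT, rank 10, lies between 185325 and 220809 reads. The first in KO, rank 15, lies between 112222 and 120267 reads. A sequence without a line may have such a rank, so the floor is no upper limit for it. Over the whole lists 111941 ranks in WT and 116075 in KO are skipped, which, bounded by the ranks around them, correspond to at most 9.09% of all WT reads and 10.4% of all KO reads. Fragments of the Gpx5 mRNA came to 3 reads in WT and 0 in KO, at which depth the genotype could not be checked. No miRNA that defines the cauda was among the lists used. Fragments of the mRNA of Crisp1, a secreted epididymal protein, stood at 53.1 RPM in WT against 28.7 RPM in KO; this gene was looked at after its values were seen.

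The mature miRNA sequences on which the comparison turns are given first, as RefSeq lists them for assembly GRCm38.p6. Capitals mark the seed, bases 2 to 8 from the 5′ end. miR-141-3p and miR-200a-3p, of the miR-200 family, share a seed, as do the paralogs miR-27a-3p and miR-27b-3p.
miR-141-3p (chr6:124717917-124717938, minus strand): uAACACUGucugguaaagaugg
miR-200a-3p (chr4:156054911-156054932, minus strand): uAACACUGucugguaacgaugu
miR-27a-3p (chr8:84208727-84208747, plus strand): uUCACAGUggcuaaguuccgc
miR-27b-3p (chr13:63300760-63300780, plus strand): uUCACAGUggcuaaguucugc
The 4 miRNAs that stood lower in KO are shown next, and miR-16-5p and miR-195a-5p share a seed. RefSeq places miR-16-5p at 2 loci.
miR-16-5p (chr14:61631936-61631957, minus strand, and chr3:69009918-69009939, plus strand): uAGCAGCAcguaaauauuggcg
miR-195a-5p (chr11:70235062-70235082, plus strand): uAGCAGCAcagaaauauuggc
miR-101a-3p (chr4:101346957-101346977, minus strand): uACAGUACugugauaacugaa
miR-21a-5p (chr11:86584120-86584141, minus strand): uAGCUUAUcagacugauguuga
The next 3 stood higher in KO at their usual first base and at neighbouring first bases alike, and miR-125a-5p and miR-125b-5p share a seed.
miR-125a-5p (chr17:17830817-17830840, plus strand): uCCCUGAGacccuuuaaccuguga
miR-125b-5p (chr16:77646279-77646300 and chr9:41581940-41581961, plus strand): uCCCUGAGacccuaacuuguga
miR-199a-5p (chr1:162217844-162217866, plus strand, and chr9:21496537-21496559, minus strand): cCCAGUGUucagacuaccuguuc
The last 3 are shown because their reads began mainly 1 base before the first base that RefSeq gives.
miR-26a-5p (chr10:126995543-126995564 and chr9:119031811-119031832, plus strand): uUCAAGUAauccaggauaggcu
miR-99b-5p (chr17:17830194-17830215, plus strand): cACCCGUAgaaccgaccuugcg
miR-205-5p (chr1:193507503-193507524, minus strand): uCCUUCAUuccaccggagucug

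The most abundant tRNA reads are shown because the lower tRNA share in KO turned on the first of them. They are written as the deposited lists give them, from the first base of the read. Capitals mark the 18 bases that the 2 glycine reads share.
tRNA-Gly, 18 nt: GCATTGGTGGTTCAGTGG
tRNA-Gly, 30 nt: GCATTGGTGGTTCAGTGGtagaattctcgc
tRNA-Val, 33 nt: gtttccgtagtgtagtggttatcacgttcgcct
The tRNA-His reads are shown because reads that end 2 bases apart differed between the libraries in different degree, and the tRNA-Asp and tRNA-Gln reads because they stood higher in KO.
tRNA-His, 32 nt: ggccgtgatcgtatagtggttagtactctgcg
tRNA-His, 34 nt: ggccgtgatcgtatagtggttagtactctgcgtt
tRNA-Asp, 32 nt, 3′ part: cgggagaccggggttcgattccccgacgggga
tRNA-Gln, 33 nt: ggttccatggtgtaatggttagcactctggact

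miRNAs and tRNA fragments together made up nearly all reads of both libraries, with relatively more miRNA and less tRNA reads in KO. By distinct sequences the miRNA share was lower in KO, at 27664 of 193297 in WT and 26692 of 194346 in KO. It was also lower (log2 -0.025) among the reads left without the 10 most abundant sequences of each class. The miRNA class held 57.71% of WT reads and 62.11% of KO reads, a ratio of 1.076 (1.075 to 1.077). tRNA fragments held 38.82% in WT and 32.67% in KO, a log2 difference of -0.25. All other classes together rose from 3.464% to 5.213% of reads, 1.505-fold (1.499 to 1.51). Ribosomal RNA fragments accounted for 1.158% in WT and 1.786% in KO, mRNA fragments for 0.8801% and 1.383%, and reads listed as piRNAs for 0.5907% and 0.9136%. Every one of the minor classes was therefore higher in KO on this scale, where 1 class can only gain share if others lose it.

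Fragments of spliceosomal small nuclear RNA (snRNA) were the only class that differed by 2-fold or more. They held 0.0395% of WT reads and 0.09133% of KO reads, 2.31-fold higher (2.24 to 2.39). Small nucleolar RNA (snoRNA), which guides modification of ribosomal RNA, held 0.3359% and 0.3981%, and Y RNA 0.08691% and 0.135%. Mitochondrial RNA held 0.1995% in WT and 0.2473% in KO, the smallest relative difference of these minor classes after snoRNA.

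**Figure D1:**
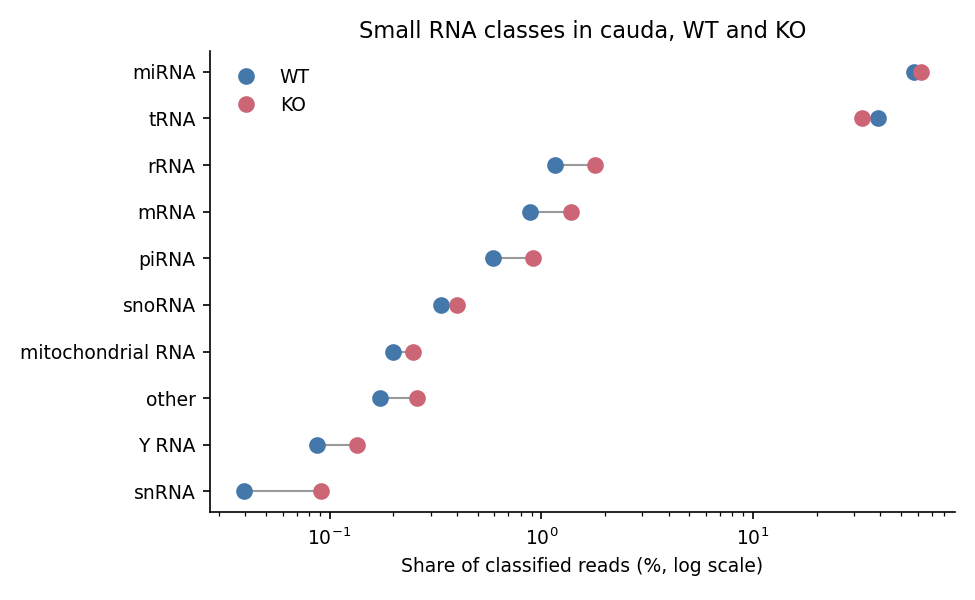
Share of classified reads by RNA class in the WT and KO cauda libraries (log axis, percent), with 1 pooled library per genotype. miRNA is at 57.71% and 62.11% and tRNA at 38.82% and 32.67%, and snRNA shows the widest gap, from 0.0395% to 0.09133%.

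A few miRNAs accounted for most of the difference in the miRNA class, which gained 44000 RPM in KO. Reads of miR-143, a miRNA of smooth muscle, stood at 150800 RPM (WT) against 182000 RPM (KO) when neighbouring first bases were included. miR-141, of the epithelial miR-200 family, stood at 609.1 RPM in WT against 23480 RPM in KO, and miR-27 at 287.9 and 6417 RPM. miR-143 thus gained 31200 RPM, miR-141 22870 RPM and miR-27 6129 RPM. Against this, miR-10b, the most abundant miRNA, dropped by 35100 RPM, from 185700 to 150600 RPM. The next largest were small beside it: miR-21a dropped by 2638 RPM and miR-10a dropped by 2000 RPM. Over the same libraries the tRNA class dropped by 61500 RPM.

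By mature name, 78 of 796 miRNAs reached 100 RPM in at least 1 library. A miRNA is called higher or lower where it differed 2-fold or more with an interval that excluded 1. Of the 78, 13 were higher in KO (16.7%) and 4 were lower (5.13%). Most others differed little: 44 of the 78 lay within 0.5 of 0 on the log2 scale. The median log2 difference of the 78 was 0.36, and 66 of them were above 0. The centre of the data by 2 scalings meant for such lopsided libraries was likewise above 0, at 0.39 by trimmed mean of M-values and 0.36 by the median of ratios. A log2 difference near 0.36 is thus the typical one here, and smaller values lie below the typical miRNA of this comparison.

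Of the abundant miRNAs named here, all but miR-22-3p lay below that centre. miR-10b-5p stood at 170900 RPM in WT against 139200 RPM in KO (log2 -0.30), and its relative miR-10a-5p at 103900 and 103700 RPM (log2 -0.00). miR-143-3p stood at 96530 RPM (WT) against 117400 RPM (KO) by its mature name (log2 0.28). miR-30a-5p, at 14690 and 13520 RPM, and miR-191-5p, at 12260 and 11620 RPM, were slightly lower in KO. miR-148a-3p, at 7526 and 8906 RPM, and miR-22-3p, at 3860 and 5904 RPM, were higher by less than 2-fold. Among the miRNAs at 1000 RPM or more in WT, the 2-fold mark was passed by miR-21a-5p only.

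**Figure D2:**
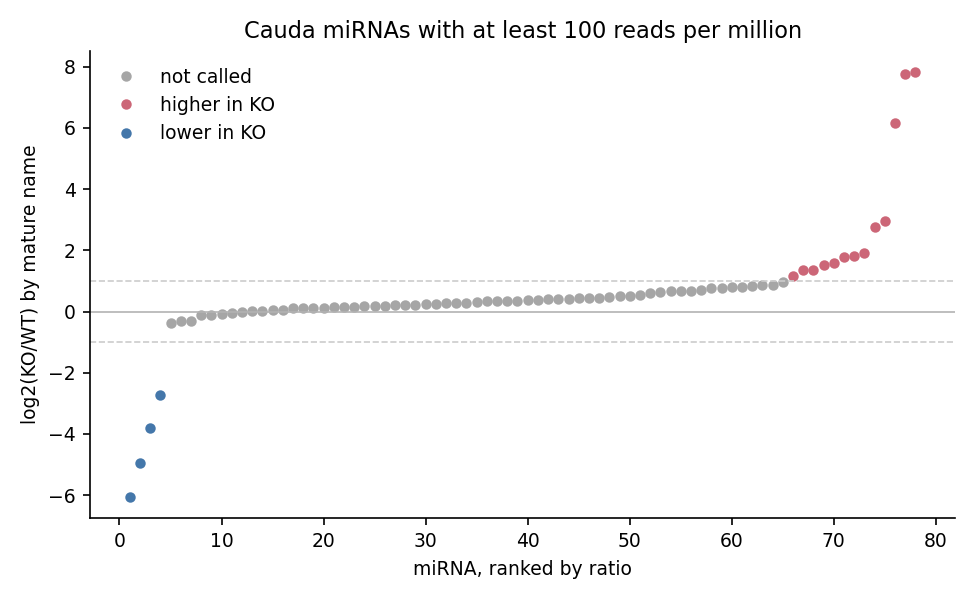
Log2 ratio of KO over WT for the 78 mature miRNAs with at least 100 RPM in either library, ordered by that ratio. Most lie between 0 and 1, miR-16-5p, miR-195a-5p, miR-101a-3p and miR-21a-5p lie far below, and miR-141-3p, miR-27b-3p and miR-27a-3p lie far above.

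The largest differences belonged to miR-27 and miR-141. miR-27a-3p stood at 1.461 RPM in WT (24 reads) and 332.4 RPM in KO (3807 reads), and its paralog miR-27b-3p at 25.5 and 5483 RPM, 215-fold higher (195.3 to 237.3). These 2 paralogs differ near the 3′ end only, so short reads of one can be listed under the other. miR-141-3p stood at 325.9 RPM in WT against 23190 RPM in KO, 71.2-fold higher (69.3 to 73.1). miR-200a-3p, with the same seed, stood at 578.6 and 1301 RPM, and miR-429-3p of the same family at 638.4 and 1013 RPM.

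On the lower side, miR-16-5p stood at 820.6 RPM in WT against 12.4 RPM in KO, a ratio of 0.0151 (0.0127 to 0.0178). miR-195a-5p, with the same seed, stood at 152.6 and 4.89 RPM. miR-101a-3p stood at 267.2 RPM (WT) against 18.95 RPM (KO). miR-21a-5p, which responds to injury and inflammation in many tissues, stood at 2695 and 410.3 RPM, a ratio of 0.152 (0.148 to 0.157). The 3 lowest of these were at under 20 RPM in KO, far below their WT level.

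The other miRNAs higher in KO differed less. miR-199a-5p, which is found mainly in mesenchymal cells, stood at 143.9 RPM in WT against 1109 RPM in KO, 7.70-fold higher (7.37 to 8.05). miR-125b-5p stood at 964.5 and 3620 RPM, and miR-125a-5p at 311.8 and 1081 RPM. miR-30a-3p, the passenger strand of the miR-30a hairpin, stood at 18.2 RPM in WT against 123.7 RPM in KO, while its main strand miR-30a-5p was not higher. The same was seen for miR-145a: the 3p strand stood at 349.3 and 892.1 RPM, and the 5p strand at 1976 and 1892 RPM. The endothelial miR-126a gave 55.87 and 167.9 RPM for its 3p strand, against 1409 and 1651 RPM for its 5p strand. In these 3 hairpins, then, the strand that was 2-fold or more higher was the less abundant one. miR-145a-3p and miR-200a-3p fell below the 2-fold mark under both other scalings, and miR-100-5p, described next, under trimmed mean of M-values. The remaining members called higher were miR-151-5p at 169.1 and 591 RPM, miR-3968 at 85.14 and 246.4 RPM, and miR-100-5p at 529.4 and 1354 RPM.

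A miRNA's reads do not all begin at the same base. Each miRNA was counted at its usual first base, that of the RefSeq sequence, and separately at first bases 1 to 3 nt to either side. Bases before the usual first base were not compared here with the genome. A read with any added 5′ base thus counts as a neighbouring start. For most of the miRNAs with large differences the 2 counts disagreed. miR-141-3p at its usual first base stood at 270.5 RPM (WT) against 23110 RPM (KO), 85.4-fold higher (82.9 to 88.0). At neighbouring first bases the same miRNA stood at 338.6 and 370.8 RPM, 1.10-fold (1.05 to 1.14). The usual first base thus held 44.4% of miR-141 reads in WT and 98.4% in KO. The neighbouring reads were mostly those with 1 base before the usual first base, at 325.7 RPM in WT against 354.7 RPM in KO. Whether that base comes from the genome was not tested. That upstream base was mixed in both libraries: T in 130.8 RPM of WT and 162.3 RPM of KO, A in 80.57 and 63.92 RPM, C in 75.34 and 97.72 RPM, and G in 38.95 and 30.74 RPM.

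The same held for miR-27, whose 2 paralogs were counted together. Its usual first base gave 11.75 RPM in WT against 6150 RPM in KO. Its neighbouring first bases gave 276.2 and 266.2 RPM, a log2 difference of -0.05. The usual first base held 4.08% of miR-27 reads in WT and 95.9% in KO, so the difference lay in reads that begin at a single base.

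The 4 miRNAs lower in KO showed the mirror image. miR-16-5p fell from 853.3 to 10.57 RPM at its usual first base, while its neighbouring first bases gave 23.55 RPM (WT) against 40.69 RPM (KO). The usual first base of miR-16 held 97.3% of its reads in WT and 20.6% in KO, and that of miR-195a 97.7% and 44.8%. miR-101a-3p gave 1287 and 76.23 RPM at the usual first base, against 621.9 and 735 RPM at its neighbours. miR-21a-5p gave 3592 RPM in WT against 924.6 RPM in KO at the usual first base, and 96.15 and 125 RPM at its neighbours. At neighbouring first bases all 4 thus had higher values in KO, by log2 differences of 0.79 for miR-16, 0.84 for miR-195a, 0.38 for miR-21a and 0.24 for miR-101a. Relative to the centre of the data miR-16 and miR-195a stayed above it, miR-21a lay at it and miR-101a lay below it.

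A very low value could arise where an abundant sequence is missing from a list, so the main reads of these miRNAs were looked up one by one. The most abundant miR-141 read, of 21 nt, was listed in both, with 4063 reads in WT and 251505 in KO. That of miR-27, of 20 nt, stood at 6.146 RPM in WT against 3216 RPM in KO, and that of miR-16, of 22 nt, had 9299 reads in WT and 73 in KO. The low values of these 3 reads were therefore counts of listed sequences. Some less abundant reads were listed in 1 library only: a 22-nt read of miR-27 had 3012 reads in KO and no line in WT, and a 23-nt read of miR-16 had 204 reads in WT and no line in KO. Whether such reads were absent or fell on a skipped rank was not tested.

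Reads of one miRNA that share the usual first base but end at different bases did not all differ alike. The 21-nt read of miR-21a stood at 487.9 RPM in WT against 5.851 RPM in KO, and its 22-nt read at 2094 and 375.1 RPM. Its 23-nt read stood at 528.2 and 313.1 RPM, and a 24-nt read at 301.5 and 185.2 RPM. The shorter the miR-21a read, over these 4 lengths, the lower its KO level was against WT, except that the 23-nt and 24-nt reads were near each other. A 20-nt read did not continue this order: it stood at 56.54 RPM in WT against 1.135 RPM in KO (13 reads), less far apart than the 21-nt read. A 20-nt read of miR-125b stood at 1.4 RPM (WT) against 711 RPM (KO), against 449.7 and 1156 RPM for its 22-nt read. These length variants were looked at after the values were seen.

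The 3 miRNAs shown above as higher at both kinds of first base, and miR-145a-3p, gave like values. miR-125b-5p stood at 900.1 RPM in WT against 3226 RPM in KO at its usual first base, and at 316.1 and 1254 RPM at its neighbours. miR-125a-5p gave 307 and 1052 RPM, and 70.23 and 181.2 RPM. miR-199a-5p gave 165.6 and 1152 RPM at the usual first base, with few reads elsewhere (1.887 and 8.82 RPM). miR-145a-3p gave 53.68 and 150.6 RPM at its neighbours, a log2 difference of 1.49 beside 1.36 at the usual first base. Of the 13 miRNAs higher by name, these 4 passed the 2-fold mark at other first bases too, miR-199a-5p at under 10 RPM there and so below the 100 RPM asked of the calls, and of the 4 lower by name 0 did. miR-3968 had no reads that could be counted by first base. Unlike miR-141 and miR-27, miR-125b kept its usual first base at near the same share of its reads, 74.0% in WT and 72.0% in KO.

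Counted over all tested miRNAs, 79 had at least 100 RPM at their usual first base, of which 14 were higher in KO (17.7%) and 4 lower (5.06%). Of 29 with at least 100 RPM at neighbouring first bases, 4 were higher (13.8%) and 1 was lower (3.45%). Those higher were miR-125a-5p, miR-125b-5p, miR-145a-3p and miR-3963, the last at 70.78 and 200.8 RPM. The one lower was miR-205-5p, an epithelial miRNA. It stood at 878.7 RPM in WT against 142.4 RPM in KO at neighbouring first bases, nearly all 1 base upstream, and at 0.4868 and 9.082 RPM at the RefSeq first base. For miR-205, the upstream reads that fell were those with T as the added base, at 807.7 RPM in WT against 53.18 RPM in KO. Upstream reads with A (30.18 and 39.56 RPM), C (21.06 and 28.38 RPM) and G (18.14 and 19.04 RPM) did not fall. miR-127-3p moved the other way, with 6.572 RPM (WT) against 176 RPM (KO) at its usual first base and a log2 difference of 0.36 at the others. Its most abundant read there, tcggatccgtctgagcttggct, was listed as miR-127-3p in both files, at 1.278 RPM in WT against 46.46 RPM in KO. More reads of that start site as a whole (102 in WT and 2007 in KO) were listed as mRNA than as any other class, and those are not in the count by mature name.

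A few abundant miRNAs began 1 base upstream of the RefSeq first base in both libraries. miR-26a-5p gave 8255 RPM in WT against 7899 RPM in KO at the upstream base, and 7.85 and 12.05 RPM at the RefSeq first base. miR-99b-5p gave 2797 and 4610 RPM upstream, and 16.07 and 40.52 RPM at the RefSeq base. The added base was T in 86.8% of WT and 80.1% of KO upstream reads of miR-26a, and C in 82.9% and 93.8% of those of miR-99b. In the cauda, the share of reads at the RefSeq first base was thus low in both libraries for miR-26a and miR-99b. For miR-141, miR-27, miR-16, miR-101a and miR-205 that share differed between the libraries. Whether reads of miR-26a and miR-99b at the RefSeq first base fell on skipped ranks was not tested. miR-26a and miR-99b read on the RefSeq first base alone would be counted as almost absent.

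**Figure D3:**
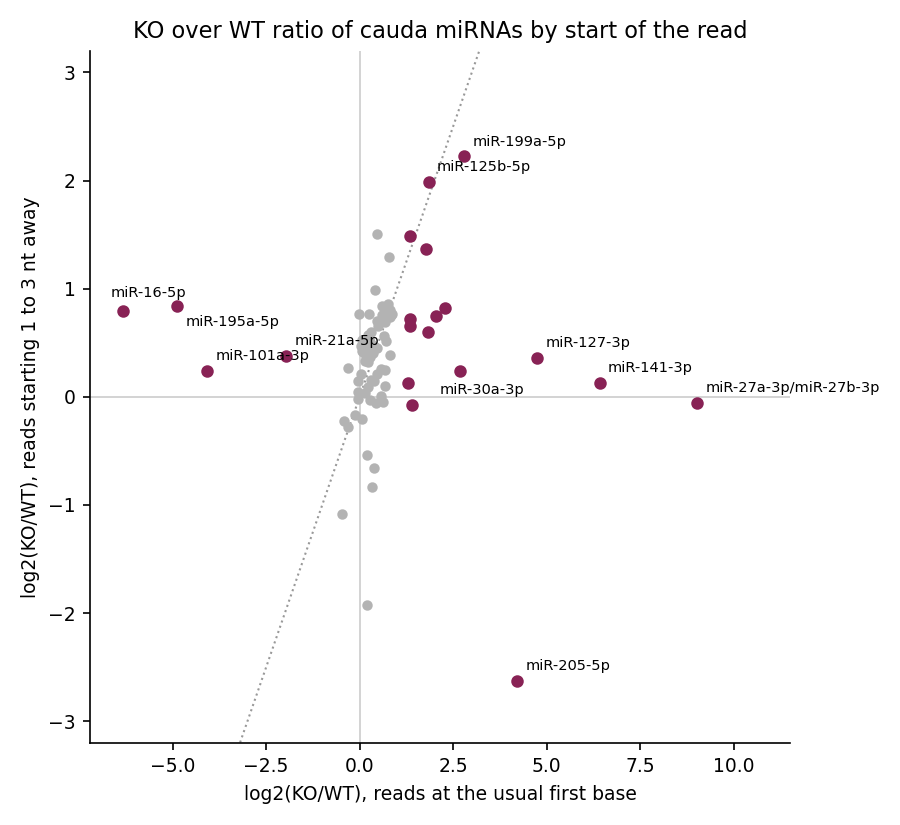
Log2 ratio of KO over WT for reads at the usual first base (horizontal axis) and at first bases 1 to 3 nt away (vertical axis), 1 point per miRNA, with a diagonal where both agree. miR-125b-5p, miR-125a-5p and miR-199a-5p lie near the diagonal, while miR-141-3p, miR-27, miR-16-5p, miR-195a-5p, miR-101a-3p and miR-21a-5p lie between -0.05 and 0.84 on the vertical axis.

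Families and cell type markers were read from lists chosen with earlier results of these data known, and are given by counts and medians only, beside the median of 0.36 over all 78 miRNAs. The let-7 family, at 8064 RPM in WT against 10850 RPM in KO, had 0 of 9 tested members called and a median log2 of 0.43. The miR-30 family, at 17960 and 17810 RPM, had 0 of 5, and relative to the centre of the data its sum lay lower, not level. Of the miR-200 family, 2 of 5 were higher (miR-141, and miR-200a, whose call was lost under both other scalings), and without miR-141 the family stood at 2135 RPM (WT) against 3581 RPM (KO). Of the miR-10/99/100/125 family 3 of 6 were higher, miR-125a, miR-125b and miR-100, of which miR-100 was lost under trimmed mean of M-values, although the family's sum fell from 277300 to 250100 RPM with miR-10b. Both tested members of the miR-15/16 family were lower, and its other members together stood at 74.49 and 100.3 RPM. Without miR-27, the miR-23/24/27 family stood at 672.9 and 767.7 RPM.

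Markers of other cells that the tissue could hold are read against the 16.7% called higher and 5.13% called lower over all 78 miRNAs. Leukocyte miRNAs, with 724.8 RPM in WT against 589.6 RPM in KO, had 0 of 2 called, and erythroid miRNAs, with 1562 and 2138 RPM, 0 of 1. Germ cell miRNAs, of which 22 of 23 had reads, stood at 732.9 and 1033 RPM with 0 of 3 called. Smooth and striated muscle miRNAs stood at 98870 and 120200 RPM with 1 of 3 called, and endothelial miRNAs at 1465 and 1819 RPM with 1 of 2 called. Mesenchymal miRNAs, led by miR-199a-5p, stood at 541.6 and 1725 RPM with 1 of 2 called and a median log2 of 1.75. That median lies between the 2 tested members, miR-199a-5p at log2 2.945 and miR-199a-3p/miR-199b-3p at 0.55. The part of cell mixture in the higher miR-199a-5p was not tested, and in bulk tissue more cells of a type and more RNA per cell cannot be told apart. The summed germ cell, leukocyte and erythroid markers each differed by less than 2-fold between the libraries.

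The lower tRNA share in KO came mainly from a single 18-nt read of tRNA-Gly. That read, shown above, stood at 157900 RPM in WT against 104000 RPM in KO, a ratio of 0.659 (0.658 to 0.660). The 30-nt tRNA-Gly read that begins with the same 18 bases stood at 105200 and 104700 RPM, a log2 difference of -0.01. The 2 reads share a 5′ end and differ only in where they stop, and the shorter alone was lower in KO. At 18 nt the shorter read lies at the lower limit of the inserts selected. The part of size selection in its level was not tested. Without the 18-nt read, tRNA fragments stood at 230400 RPM (WT) against 222700 RPM (KO), a log2 difference of -0.05 in place of -0.25. All tRNA-Gly reads together stood at 298400 and 236500 RPM, and 18-nt and 30-nt reads made up most of them in both libraries.

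Over all tRNA fragments, reads of 18 to 24 nt fell from 181800 to 121800 RPM (log2 -0.58), which is 46.8% of WT and 37.3% of KO tRNA reads. Reads of 30 to 34 nt, the length of fragments that end in the anticodon loop, stood at 202500 and 201000 RPM (log2 -0.01). The few reads of 35 nt or more rose from 757.5 to 1265 RPM. Valine fragments, nearly all long, were level at 76340 RPM in WT against 75280 RPM in KO. Within them the 33-nt read stood at 61220 and 54470 RPM, and the read 1 base shorter at 5660 and 9720 RPM. Per classified read, the long fragments were thus level while short glycine fragments were lower. Relative to the centre of the miRNAs, at log2 0.36, both lay lower.

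**Figure D4:**
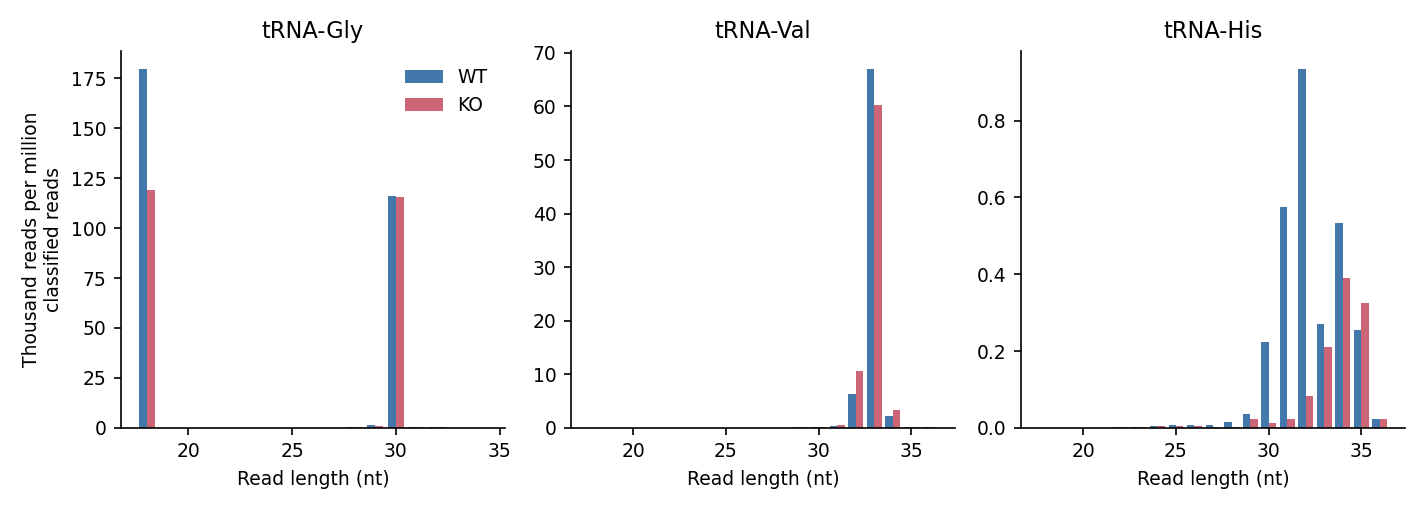
RPM by fragment length (nt) for tRNA fragments in the WT and KO cauda libraries. Glycine reads fall into peaks at 18 and 30 nt, of which the first is at 179800 RPM in WT against 119200 RPM in KO and the second at 116000 and 115400 RPM, and valine reads peak at 33 nt.

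Less abundant tRNAs moved in both directions. Histidine fragments stood at 2898 RPM (WT) against 1120 RPM (KO), 2.59-fold lower, the only named tRNA past the 2-fold mark on the lower side. Within tRNA-His, reads of 30 to 32 nt stood at 1732 and 121 RPM, 14.3-fold lower, while reads of 33 to 35 nt stood at 1060 and 926.3 RPM. The 32-nt read above stood at 680.8 and 15.72 RPM, and the 34-nt read at 323.7 and 231.9 RPM. As with glycine, reads with the same 5′ end and different 3′ ends stood in different proportions in the 2 libraries. Cysteine fragments stood at 2566 and 1766 RPM.

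Aspartate, glutamine and proline fragments were higher in KO. Reads of the aspartate entry, which lay in the 3′ part of the tRNA, stood at 214.3 RPM in WT against 1376 RPM in KO, a log2 difference of 2.68. The 32-nt aspartate read above stood at 40.41 and 256.7 RPM, and a 31-nt read of the same region at 5.903 and 204.9 RPM. Glutamine fragments stood at 306.3 and 857.3 RPM, of which the 33-nt read above gave 140.8 and 474.5 RPM. Proline fragments stood at 72.42 and 233.8 RPM. Lysine fragments, at 3797 RPM in WT against 5029 RPM in KO, alanine fragments, at 87.15 and 137.4 RPM, and leucine fragments, at 174.6 and 203.9 RPM, differed by less than 2-fold.

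Reads of every class were also grouped by a shared first 18 bases, which gives 1 start site per group whatever the 3′ end. Of 232 start sites with at least 100 RPM in either library, 43 were higher in KO (18.5%) and 13 were lower (5.6%). Where first bases 1 to 3 nt away held at least 50 reads, they could be compared with the site itself, which was so for 40 of the higher and all 13 of the lower sites. The neighbours passed the same 2-fold mark in 24 of those 40 and in 3 of those 13. Among 135 miRNA sites 17 were higher and 7 lower, and the neighbours passed with them at 8 and 0. Among 40 tRNA sites 6 were higher and 5 lower, and of the 5 of each that had enough neighbouring reads, these passed at 4 and 3. By these counts the neighbours passed at most called tRNA sites with enough neighbouring reads, and at fewer than 1 in 2 of the called miRNA sites. Sites 1 to 3 nt apart hold each other's reads as neighbours, so a pair of called sites can enter these counts at both. The counts are thus not of independent sites, and the difference between tRNA and miRNA sites was not tested.

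The minor classes held single start sites with wide differences. Ribosomal RNA had 18 sites, of which 9 were higher in KO and 0 lower. The widest rRNA site stood at 0.3043 RPM in WT (5 reads) and 581.1 RPM in KO (6655 reads), while its neighbouring starts stood at 20.14 and 28.99 RPM. The most abundant rRNA site was level, at 4627 RPM (WT) against 4637 RPM (KO). The rRNA class was therefore higher through some of its sites and not through the one with most reads.

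A fragment of the U2 snRNA, which recognises the branch point in splicing, showed the same. U2 in all stood at 146.7 RPM in WT against 415.8 RPM in KO, 2.83-fold higher (2.70 to 2.98), and U1, which recognises the 5′ splice site, at 80.09 and 175.3 RPM. The U2 start site shown here for its share of that difference stood at 26.78 and 256.8 RPM.
U2 site, 18 nt: ctccaggaacggtgcacc
U4 fragments stood at 16.8 and 35.1 RPM, U5 at 22.46 and 32.22 RPM, and U6 at 40.23 and 61.13 RPM. All 5 were higher in KO, and U5 and U6 stayed under 2-fold.

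Of 41 snoRNA families with at least 10 RPM, 7 were higher (17.1%) and 0 lower (0.0%), with a median log2 of 0.13. Over all start sites, at 100 RPM or more, 18.5% were higher and 5.6% lower. SNORD27 stood at 55.68 RPM in WT against 160.7 RPM in KO. A single start site of SNORD27 stood at 10.47 and 116.1 RPM, while its neighbouring starts were level at 11.01 and 10.3 RPM. SNORD57, at 438 and 287.3 RPM, was lower by less than 2-fold. Y RNA had 2 start sites of opposite size: 1 stood at 430 and 825 RPM and the other at 388.9 and 366.4 RPM. 7SK, the RNA that holds a transcription elongation factor inactive, stood at 69.5 and 142.7 RPM.

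Entries listed as piRNAs, the class that silences transposons in germ cells, included reads of other RNAs. One such read, shown because it carried a wide difference within the class, stood at 13.27 RPM (WT) against 410.6 RPM (KO) by start site, with neighbouring starts at 4.99 and 62.09 RPM. Its letters are those of the 5′ part of a glutamate tRNA without that tRNA's first base.
Read listed as piRNA, 29 nt: ccctgtggtctagtggttaggattcggcg
Another start site listed as piRNA, that of piR-16, stood at 2.373 and 137.7 RPM, and one listed under piR-980 and piR-981 at 46.74 and 474.8 RPM. Sites abundant in both libraries differed less, such as piR-120348 at 286.6 RPM in WT against 455.4 RPM in KO and piR-22206 at 442.2 and 366.9 RPM.

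The share of reads at the usual first base was then set beside that in the other tissues of the series, each with 1 library per genotype. miR-141 stood at 98.0% in WT and in KO caput, at 98.1% and 98.4% in corpus, and at 99.2% and 97.5% in testis. The WT cauda, at 44.4%, was thus the one library of the 8 with a low share. miR-195a was between 97.2% and 98.4% in all of them but the KO cauda, at 44.8%. For miR-27 the share was high in WT caput (94.2%), KO corpus (96.4%) and KO cauda (95.9%) and at or under 29.6% in the other 5. miR-16 was at 97.4% in WT caput, 97.3% in KO caput, 7.19% in WT corpus and 84.1% in KO corpus. miR-101a and miR-21a varied as widely: in the corpus they went from 0.357% and 0.298% in WT to 48.7% and 97.9% in KO, while in the caput miR-101a went from 68.8% in WT to 8.58% in KO. miR-99b was at 75.0% in WT testis, at 0.691% in KO testis and at or under 1.25% in the other libraries. A low share at the usual first base was therefore found in WT and in KO libraries alike, in different tissues for different miRNAs, and its cause was not tested.

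The 4 miRNAs that differed 2-fold or more at both kinds of first base in the cauda did not do so in the other tissues. miR-199a-5p kept its usual first base at 98.7% or more in every library, and its log2 difference there was -0.25 in caput, -0.93 in corpus and -0.31 in testis. miR-125b-5p stood at log2 -0.21 in caput and -0.88 in testis at its usual first base. In corpus it stood at 4.84 there, where WT held 6.81% of its reads at that base, and at -0.71 at neighbouring ones. miR-125a-5p stood at log2 4.98 at the usual first base and 0.13 at its neighbours in corpus, at 0.97 and -0.18 in caput, and at -0.98 and -0.05 in testis. miR-145a-3p stood at 0.35 and 0.11 in caput, and was negative at both in corpus and testis. In none of these 3 tissues did any of the 4 pass a log2 of 1 at both kinds of start, a difference from the cauda that was not tested with 1 library per group.

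**Figure D5:**
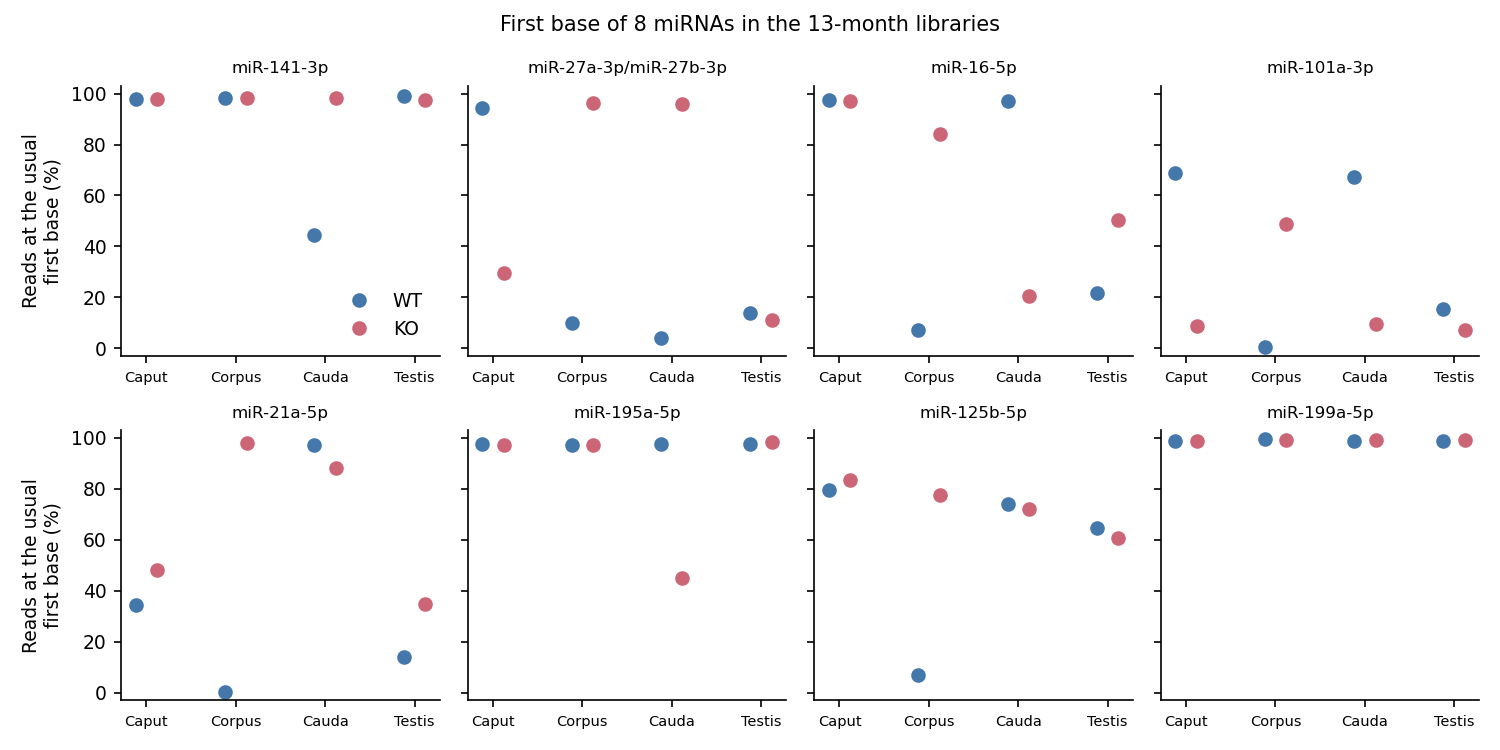
Percent of each miRNA's reads at its usual first base in WT and KO libraries of caput, corpus, cauda and testis, 1 panel per miRNA and 1 library per point. miR-199a-5p stays at or above 98.7%, while miR-27 ranges from 4.08% in WT cauda to 96.4% in KO corpus and miR-16 from 7.19% in WT corpus to 97.4% in WT caput.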

How the data were processed

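Small RNA libraries were sequenced by the submitters, and each deposited file lists distinct sequences with their read count, length, strand and matched entry. Per the file headers, matching was to miRBase, Rfam and GenBank entries with up to 2 mismatches. The submitters' processing notes name Bowtie 0.12.7, TopHat2 and the build mm9; which step used which is not given in the sources used here. The deposited counts are whole reads and were used unnormalised, and ranks skipped by the lists were not used.

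Here, reads were summed by class and entry and divided by all classified reads of the library (RPM). Ratios carry exact conditional binomial 95% intervals and shares Clopper-Pearson intervals. A floor of 3 counts stands for 0. A difference was called at 2-fold or more, with an interval that excludes 1 and at least 100 RPM in either library (10 RPM for snoRNA families). Usual first bases are those of the mature miRNA in RefSeq (65 of 78 tested names matched), or otherwise those of the most abundant read under the name. The rule for naming took the 10 most abundant miRNAs, the 10 with the largest ratio in each direction at 1000 RPM or more, up to 3 per list, each tRNA amino acid at 1000 RPM or more, and per other class up to 3 sequences per direction and the 3 most abundant. The remaining called miRNAs, tRNAs below 1000 RPM and length variants were named after their values were seen. Members and lists were chosen with earlier results of these data known. tRNAs were named from their sequences. Tools were Python 3.11.15, numpy 2.4.6, scipy 1.17.1, pandas 2.3.3, matplotlib 3.10.9, R 4.3.3 and edgeR 4.0.16 (for trimmed mean of M-values only).

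The scripts were tested on simulated counts for 673 names without replicates: 32 of 32 changed names among 77 tested were called, as were 0 unchanged ones, and intervals held the true fold in 97.2%. Alternatives covered mismatches, strand, abundance minimum, base of the share, scaling, first base, thinning to equal depth and the most abundant sequences. One, taking the class of a shared sequence from the WT list, was added after seeing the data.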

Additional observations from a re-analysis of the deposited data

How the results depend on the processing

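The miRNA share (log2 0.11) turned negative when distinct sequences were counted in place of reads (-0.20) and when the 10 most abundant sequences were left out (-0.025). It was 0.12 without mismatches, 0.11 over sequences in both lists and 0.12 with at least 10 reads. The tRNA share (log2 -0.25) was -0.32 without mismatches. It was -0.24 over sequences in both lists, over the plus strand and with at least 10 reads. As a share of the reads left without the 10 most abundant sequences of each class, it was -0.26. Those 10 held 92.7% of WT and 91.4% of KO tRNA reads, and the base there is not all classified reads. The -0.26 thus cannot be set beside values per classified read, such as -0.05 without the 18-nt tRNA-Gly read. The tRNA class held 14445 distinct sequences in WT and 13163 in KO. The piRNA share (log2 0.63) was 0.13 by distinct sequences, 0.51 without the 10 most abundant, 0.58 without mismatches, 0.61 over sequences in both lists, and 0.64 with classes taken from the WT list. At other first bases 4 of 29 tested miRNAs were higher in KO (13.8%) and 1 was lower (3.45%). With a minimum of 1000 RPM, 7 of 26 were higher and 1 was lower. Beside these stand the 16.7% called higher and 5.13% called lower over the 78. With a minimum of 10 RPM 37 were higher, but more miRNAs were tested there, so this count cannot be set against the others. Trimmed mean of M-values left 10 of the 78 higher (miR-100-5p, miR-145a-3p and miR-200a-3p were lost), and the median of ratios 11. At other first bases miR-21a was 0.38 and miR-27 -0.053. tRNA reads of 18 to 24 nt (log2 -0.58) were -0.59 at starts near the tRNA's first base and -0.23 without the 10 most abundant sequences, and those of 30 to 34 nt (-0.01) were -0.019 and 0.039. No paired analysis was possible because each genotype has 1 pooled library, and for the same reason none could be left out. Depth limits entries under about 1 RPM, and the skipped ranks limit any level that a missing abundant sequence would raise.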

Other observations

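The first bases of the reads differed between the libraries in some classes and not in others. Reads that begin with C made up 3.78% of WT reads and 5.33% of KO reads, and those that begin with CC stood at 9134 RPM in WT against 18870 RPM in KO. In ribosomal RNA, reads that begin with CC stood at 793.1 and 4340 RPM, which is 6.85% and 24.3% of that class. In reads listed as piRNAs they stood at 639.9 and 1891 RPM. mRNA fragments that begin with CG stood at 425.1 and 1716 RPM, and C was the first base of 38.9% of WT and 66.3% of KO snRNA reads. In the miRNA class the share that begins with C was 4.83% and 5.12%. Whether first base and the differences in single start sites are linked was not tested.

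Of the mitochondrial start sites, 1 stood at 22.76 RPM in WT against 101.5 RPM in KO, and 1 at 123.4 and 28.03 RPM with neighbouring starts at 105.3 and 101.6 RPM. The main read of this last site differs from that of the most abundant rRNA site only in its first base. The 2 sites share these neighbouring starts and are not independent of each other.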
